A study of Mus musculus with 8 samples.

Results

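The epidermal growth factor (EGF) family was examined in RNA-seq read counts from transformed mouse embryonic fibroblasts with and without the long noncoding RNA Neat1, around which nuclear paraspeckles assemble. The genes were taken by symbol: the ligands Ereg, Areg, Hbegf, Tgfa, Btc, Epgn and Nrg1 and the receptors Egfr, Erbb2 and Erbb3, together 10 of the 23420 symbols in the count tables. The Neat1 null group held 4 libraries from Neat1-/- fibroblasts and the wild-type group 4 libraries from fibroblasts with wild-type Neat1. Both groups had the C57BL6/N strain background, and both expressed the adenoviral oncoprotein E1A and the activated Ras protein HRasV12, so the comparison lies within oncogene-expressing cells and includes no untransformed ones. Whether replicates were grown from different embryos or dishes, and whether cells were pooled or clonal, the labels leave unsaid, and p-values therefore measure the spread between these libraries, which may be technical.

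EGF family ligands are made as transmembrane precursors that cell-surface proteases, chiefly of the ADAM family, cut to release the soluble factor. They bind EGFR, ERBB3 or ERBB4, which dimerise with one another or with ERBB2, a receptor with no known ligand of its own, and signal through adaptors to the Ras, MAPK and PI3K pathways. Several ligand genes are themselves induced by Ras and MAPK signalling in cultured cells, which makes the family a known autocrine loop of Ras-transformed cells.

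Ereg, Areg and Tgfa, which encode the EGFR ligands epiregulin, amphiregulin and transforming growth factor alpha, and Erbb3, which encodes a neuregulin receptor with a weakly active kinase, were lower in Neat1 null libraries. Their mean levels were 15.0%, 26.7%, 39.1% and 16.7% of those in wild-type libraries. Hbegf, the most abundant ligand transcript per length in Neat1 null libraries, and the receptors Egfr and Erbb2 did not pass the test. Of the 9 members with enough reads to be tested, 4 passed an adjusted p of 0.05 in edgeR's quasi-likelihood test over all genes, and each of the 4 was lower in Neat1 null libraries. Of all 13316 genes tested, 17.7% passed, 7.72% lower and 9.97% higher in Neat1 null libraries. The median log2 fold change (Neat1 null minus wild-type) was -1.31 over the 9 tested members and -0.06 over all genes tested. After a correction of every library for the length and GC content of its genes, these medians were -0.54 and 0.09. All 4 calls ended when Neat1 null library 3, wild-type library 3 or wild-type library 4 was left out, or Neat1 null libraries 1 and 3 together. The log2 fold changes stayed negative, but these refits reuse the same libraries and are no separate evidence of direction.

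To show the regulatory sequence of members that differed and of one that did not, the 250 bases upstream of the RefSeq gene start are given for the ligand genes Areg and Tgfa and for the receptor gene Erbb2 (RefSeq, GRCm38.p6, all on the plus strand, 5′ to 3′). Areg lies at chr5:91139349-91139598, Tgfa at chr6:86194972-86195221 and Erbb2 at chr11:98412234-98412483. Capitals mark matches on either strand to 5 motifs: the cAMP response element TGACGTCA, the AP-1 motif TGANTCA, the ETS motif CCGGAAGT, the SP1 GC box GGGCGG and the TATA box TATAAA.

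Areg: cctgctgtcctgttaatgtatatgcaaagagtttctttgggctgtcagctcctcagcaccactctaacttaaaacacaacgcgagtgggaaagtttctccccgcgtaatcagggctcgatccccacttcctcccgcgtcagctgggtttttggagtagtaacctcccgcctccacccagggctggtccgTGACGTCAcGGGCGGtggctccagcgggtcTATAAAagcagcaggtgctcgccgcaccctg
Tgfa: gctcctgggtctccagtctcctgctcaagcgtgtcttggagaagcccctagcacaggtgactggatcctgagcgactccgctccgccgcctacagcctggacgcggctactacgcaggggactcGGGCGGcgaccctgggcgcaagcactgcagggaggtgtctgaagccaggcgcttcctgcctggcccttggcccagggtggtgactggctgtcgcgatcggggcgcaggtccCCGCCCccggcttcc
Erbb2: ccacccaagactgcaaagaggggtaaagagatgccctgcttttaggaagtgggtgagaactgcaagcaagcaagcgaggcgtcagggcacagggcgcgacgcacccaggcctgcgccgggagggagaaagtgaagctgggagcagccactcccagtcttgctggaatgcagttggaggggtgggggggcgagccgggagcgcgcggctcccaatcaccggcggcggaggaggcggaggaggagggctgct

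The Areg window held a cAMP response element at -61, a GC box at -52 and a TATA box at -31, counted from the gene start to the first base of the match, and these matches did not overlap. The Tgfa window held a GC box at -126 and another, on the minus strand, at -15, and the Erbb2 window held none of the 5 motifs. Of 32851 mouse promoter windows of the same length, 1.55% held the cAMP response element, 6.75% the AP-1 motif, 2.88% the ETS motif, 32.7% the GC box and 12.4% the TATA box. An entry was found for 6 of the 10 members: Areg, Tgfa, Erbb2, Epgn, Btc and Egfr. None was found for Ereg, Hbegf, Nrg1 and Erbb3. In the same windows Epgn held a TATA box at -86, Egfr a GC box on the minus strand at -9, and Btc none of the motifs.

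Counts assigned to genes were 19651035, 32376822, 38950207 and 31416194 in Neat1 null libraries 1 to 4, and 34997707, 37069334, 32410368 and 31651625 in wild-type libraries 1 to 4. Neat1 stood at 6.12 to 11.3 CPM (read counts per 1e6 counts of the TMM-scaled library) in Neat1 null libraries and at 138 to 1320 CPM in wild-type libraries (log2 fold change -6.44, edgeR adjusted p = 0.000762). Neat1 null libraries 1 and 3 stood apart: ribosomal protein genes took 25.4% and 15.0% of their counts, against 8.42% to 9.21% in the other Neat1 null libraries and 5.99% to 7.05% in wild-type libraries. In each library, the deviation of a gene's log2 level from its mean over all 8 libraries was regressed on log2 exon length. The slope was -0.314 and -0.478 in Neat1 null libraries 1 and 3, -0.0534 to 0.00698 in the other Neat1 null libraries and 0.136 to 0.246 in wild-type libraries. These slopes are relative to the mean of the libraries, so low values in some libraries raise those of the others. Xist, expressed from the inactive X chromosome of female cells, had 1.89, 3.52, 233 and 2.04 CPM in Neat1 null libraries 1 to 4 and 498 to 1815 CPM in wild-type libraries. Of the fibroblast markers, Vim was high in both groups (2415 ± 657 and 1860 ± 428 CPM in Neat1 null and wild-type libraries, SD, n = 4 each), Col1a1 was low in both (2.50 ± 2.17 and 5.47 ± 4.65 CPM) and Pdgfra was lower in Neat1 null libraries (7.504 ± 2.91 against 90.0 ± 57.0 CPM; edgeR adjusted p = 0.00806). S100a4 was higher in Neat1 null libraries, with 29.0 CPM in library 1, 2.72 to 4.28 CPM in the others and 2.07 to 2.53 CPM in wild-type libraries (edgeR adjusted p = 0.0473). Of the 11 fibroblast markers, 5 had a positive log2 fold change, and their sums were 2684 to 4143 CPM in Neat1 null and 1912 to 3571 CPM in wild-type libraries. The 11 epithelial markers summed to 277.9 to 3343 CPM in Neat1 null libraries and 218.8 to 740.3 CPM in wild-type libraries, mostly from Krt18, with Krt14 at 0 in all 8 libraries. The 5 endothelial markers summed to 0.359 to 2.60 and 4.97 to 44.3 CPM in the same groups. In wild-type libraries 1 and 3 that sum was mostly Emcn (16.7 and 39.7 CPM), which had at most 0.0314 CPM in any other library. The 6 immune markers summed to 4.13 to 18.4 CPM in Neat1 null and 9.15 to 102.4 CPM in wild-type libraries, with Ptprc and Cd3e at 0 in every library. Most of the immune sum was Cd68, a lysosomal macrophage marker gene, which was lower in Neat1 null libraries (12.2 ± 6.41 against 67.9 ± 41.9 CPM, edgeR adjusted p = 0.0239). The 6 glial and neuronal markers summed to 1.797 to 4.16 CPM in Neat1 null libraries and 2.19 to 4.10 CPM in wild-type libraries. The part of these differences in the results was not tested, beyond the refits named beside them. Xist levels did not overlap between the groups, so differences that go with Xist and those that go with genotype cannot be told apart in these libraries.

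Ereg had 4.94, 8.21, 1.52 and 4.49 CPM in Neat1 null libraries 1 to 4, and 13.8, 20.04, 39.9 and 53.8 CPM in wild-type libraries 1 to 4. All 4 Neat1 null values were below the lowest wild-type value, as was so for 11% of all genes tested; 22.6% had no overlap in either direction. Ereg averaged 4.79 ± 2.74 CPM in Neat1 null libraries and 31.9 ± 18.4 CPM in wild-type libraries (SD, n = 4 each), a log2 fold change of -2.73 (SE 0.54, edgeR adjusted p = 0.0180). In bulk RNA, fewer cells that express a gene and less RNA of it per cell cannot be told apart. Wild-type library 1 was the lowest of its group for Ereg, and Neat1 null library 3 the lowest of all 8.

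Areg, which lies beside Ereg, had 17.3, 28.5, 10.9 and 15.6 CPM in Neat1 null libraries 1 to 4 and 32.2, 58.8, 86.8 and 92.8 CPM in wild-type libraries 1 to 4. The groups did not overlap, and the closest pair was Neat1 null library 2 and wild-type library 1. Areg averaged 18.1 ± 7.47 CPM in Neat1 null libraries and 67.7 ± 27.9 CPM in wild-type libraries, a log2 fold change of -1.91 (SE 0.41, edgeR adjusted p = 0.0181). Areg encodes amphiregulin, an EGFR ligand of epithelia and the mammary gland. Ereg had 28.7, 28.8, 13.9 and 28.8 counts per 100 Areg counts in Neat1 null libraries, against 42.8, 34.1, 46 and 57.9 in wild-type libraries. These ranges did not overlap either, but they come from uncorrected counts. Ereg and Areg differ in exon length (4.13 and 1.22 kb) and in GC content (39.2% and 48.4%). Once libraries were corrected for both properties, Ereg and Areg had log2 fold changes of -2.43 each, against -2.73 and -1.91 without the correction. Whether Ereg fell further than Areg was not tested. How often other gene pairs separate the groups in this way was not tested.

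Tgfa had 13.6, 20.6, 11.6 and 21.0 CPM in Neat1 null libraries 1 to 4 and 28.1, 38.6, 55.1 and 49.0 CPM in wild-type libraries 1 to 4. The groups did not overlap. The averages were 16.7 ± 4.83 CPM in Neat1 null libraries and 42.7 ± 11.9 CPM in wild-type libraries, a log2 fold change of -1.35 (SE 0.35, edgeR adjusted p = 0.0234). Tgfa encodes the EGFR ligand first isolated from virally transformed fibroblasts.

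**Figure D1:**
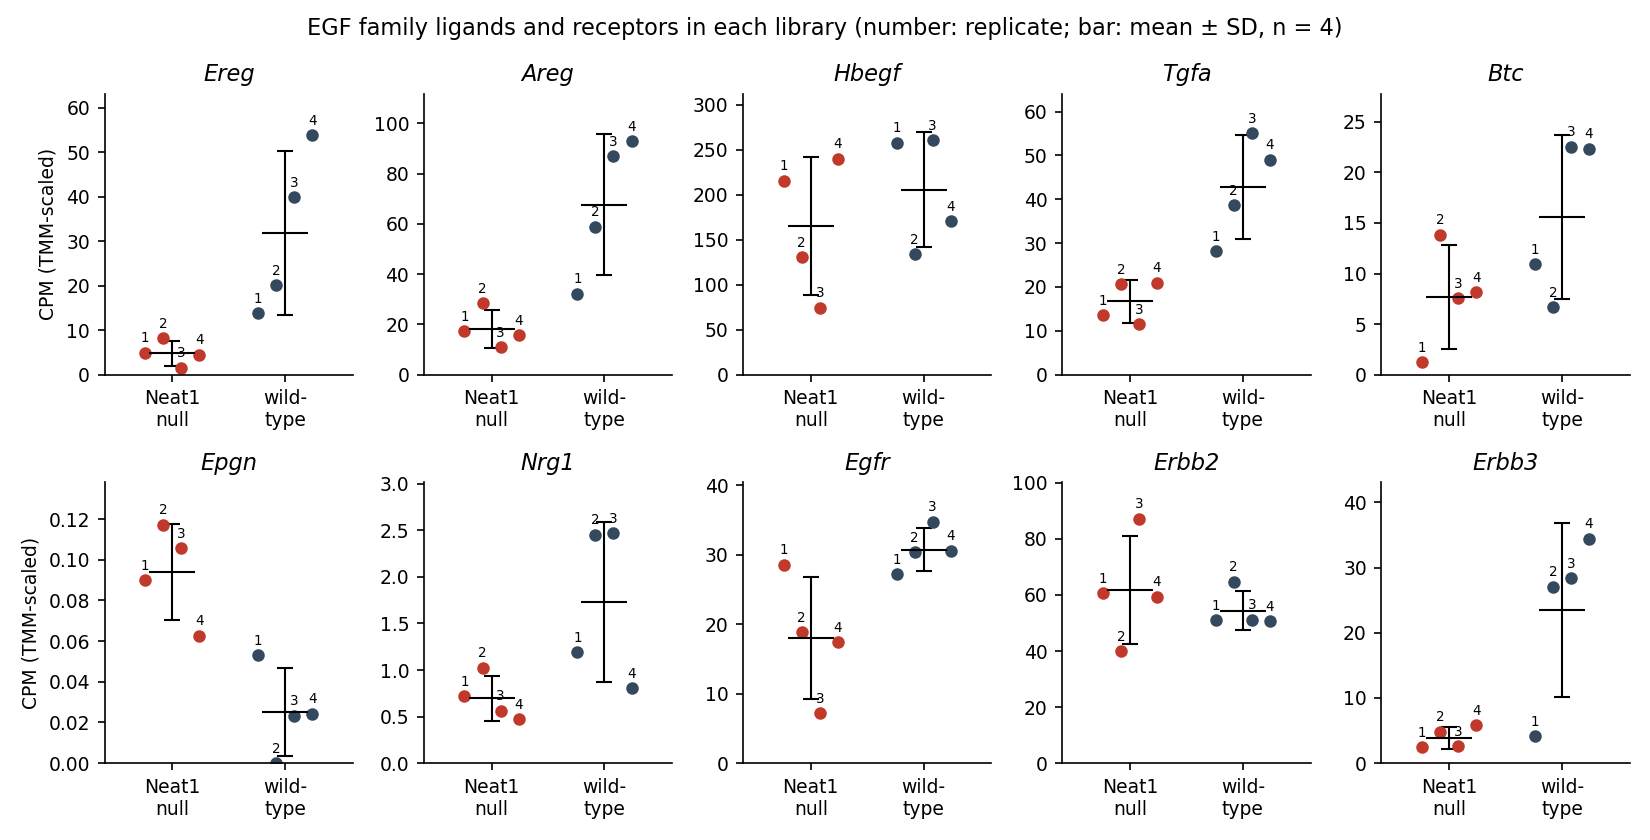
CPM of each of the 10 members in every library, Neat1 null left of wild-type, with the replicate number beside each point and bars for mean ± SD (n = 4); the axes differ between panels. Ereg, Areg and Tgfa do not overlap between groups, wild-type library 1 lies among the Neat1 null libraries for Erbb3, and Epgn rests on 0 to 4 counts per library.

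Hbegf, which encodes heparin-binding EGF-like growth factor, had 216, 131, 74.5 and 240 CPM in Neat1 null libraries 1 to 4, against 258, 134, 261 and 171 CPM in wild-type libraries 1 to 4. The groups overlapped widely, since Neat1 null libraries 1 and 4 lay above wild-type libraries 2 and 4. The averages were 165 ± 76.5 CPM in Neat1 null libraries and 206 ± 63.6 CPM in wild-type libraries, and the log2 fold change of -0.32 (SE 0.41) did not pass the test (edgeR adjusted p = 0.602). It was -0.06 when Neat1 null library 3 was left out and -0.54 when library 4 of that group was.

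Btc, which encodes betacellulin, a ligand of EGFR and ERBB4, had 1.26, 13.8, 7.55 and 8.13 CPM in Neat1 null libraries 1 to 4 and 10.9, 6.65, 22.6 and 22.4 CPM in wild-type libraries 1 to 4. The groups overlapped, and the log2 fold change of -1.01 (SE 0.58) did not pass (edgeR adjusted p = 0.216). Nrg1, which encodes the ERBB3 and ERBB4 ligand neuregulin 1, was scarce, with 0.719, 1.03, 0.564 and 0.471 CPM in Neat1 null libraries and 1.19, 2.45, 2.47 and 0.803 CPM in wild-type libraries. Only wild-type library 4 fell within the Neat1 null range, and the log2 fold change of -1.31 (SE 0.58) did not pass (edgeR adjusted p = 0.119). Corrected for length and GC content, Btc and Nrg1 had log2 fold changes of -0.54 and -0.53. Epgn, which encodes epigen, had 1, 4, 3 and 2 counts in Neat1 null libraries and 2, 0, 1 and 1 counts in wild-type libraries, too few to pass the low-count filter or for a fold. These counts ran toward more reads in Neat1 null libraries, and with no filter Epgn did not pass (edgeR adjusted p = 0.2396).

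Erbb3 had 2.43, 4.81, 2.61 and 5.84 CPM in Neat1 null libraries 1 to 4, and 4.16, 27.0, 28.3 and 34.4 CPM in wild-type libraries 1 to 4. Wild-type library 1 lay within the Neat1 null range, and wild-type libraries 2 to 4 lay above all of it. Erbb3 averaged 3.92 ± 1.68 CPM in Neat1 null libraries and 23.5 ± 13.3 CPM in wild-type libraries, a log2 fold change of -2.57 (SE 0.56, edgeR adjusted p = 0.0181). Without wild-type library 1 the log2 fold change was -2.91.

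Egfr, the receptor of epiregulin, amphiregulin and transforming growth factor alpha, had 28.6, 18.9, 7.23 and 17.4 CPM in Neat1 null libraries 1 to 4, against 27.2, 30.4, 34.8 and 30.6 CPM in wild-type libraries 1 to 4. Neat1 null library 1 lay within the wild-type range and the other Neat1 null libraries below it. The log2 fold change of -0.77 (SE 0.39) did not pass (edgeR adjusted p = 0.168) and was 0.01 after the length and GC correction. Egfr has the longest exon sequence of the 10 members, at 11.33 kb, and Areg the shortest, at 1.22 kb.

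Erbb2 had 60.7, 40.0, 87.2 and 59.3 CPM in Neat1 null libraries 1 to 4 and 51.0, 64.7, 51.1 and 50.6 CPM in wild-type libraries 1 to 4. Neat1 null library 3, the lowest of all libraries for Ereg, Areg, Tgfa and Egfr, was the highest for Erbb2. The log2 fold change of 0.19 (SE 0.33) did not pass (edgeR adjusted p = 0.708) and was -0.01 with upper-quartile scaling and -0.02 without Neat1 null library 3. Erbb3 had 3.99, 12.0, 2.99 and 9.84 counts per 100 Erbb2 counts in Neat1 null libraries, against 8.17, 41.8, 55.4 and 68.1 in wild-type libraries, with wild-type library 1 again inside the Neat1 null range.

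**Figure D2:**
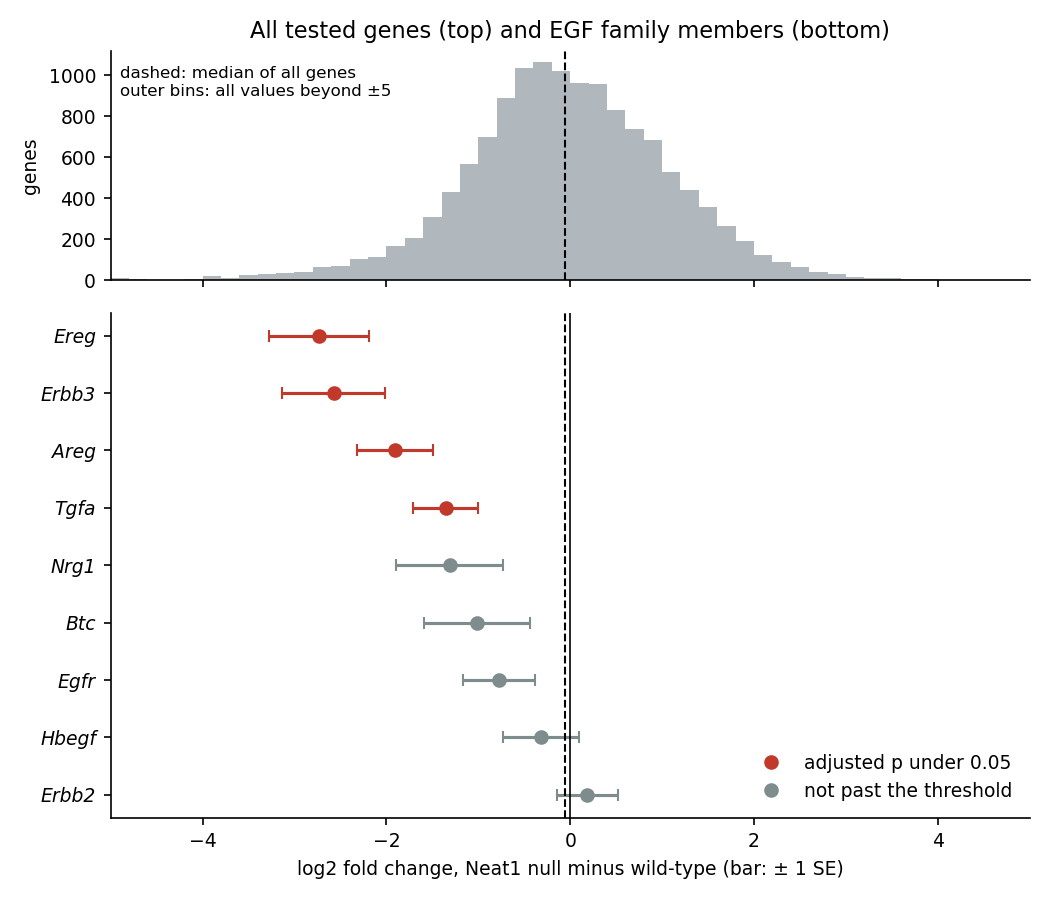
Log2 fold change (Neat1 null minus wild-type) of all 13316 tested genes as a histogram above, and of the 9 tested members with ± 1 SE below. The members called (Ereg, Erbb3, Areg and Tgfa) lie between -2.73 and -1.35, while the dashed median of all genes lies at -0.06.

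Scaled to exon length, Hbegf was the leading ligand in Neat1 null libraries and Areg in wild-type libraries, though their ranges overlapped within each group. On the scale of CPM per kb of exon sequence, Hbegf stood at 34.2 ± 15.8 in Neat1 null and 42.6 ± 13.2 in wild-type libraries (SD, n = 4 each). On the same scale Areg stood at 14.9 ± 6.15 and 55.7 ± 23.0 in Neat1 null and wild-type libraries. In Neat1 null libraries Erbb2 (11.9), Tgfa (2.57), Btc (1.70), Egfr (1.59), Ereg (1.16), Erbb3 (0.652), Nrg1 (0.0672) and Epgn (0.0520) followed, in mean CPM per kb. Between neighbours in that order, ranges were separate only between Erbb2 and Tgfa and between Erbb3 and Nrg1. In wild-type libraries the order after Areg and Hbegf was Erbb2 (10.4), Ereg (7.73), Tgfa (6.58), Erbb3 (3.91), Btc (3.45), Egfr (2.71), Nrg1 (0.167) and Epgn (0.0139). There, neighbours were separate only between Hbegf and Erbb2, between Egfr and Nrg1 and between Nrg1 and Epgn. With the longest transcript as the length, Hbegf stood above Areg and Tgfa above Ereg in wild-type libraries, and the Neat1 null order was the same.

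Ligand transcripts summed to 62.5, 58.9, 28.3 and 68.7 CPM per kb in Neat1 null libraries 1 to 4 and to 90.1, 88.6, 148.8 and 137.4 CPM per kb in wild-type libraries 1 to 4. Hbegf made up 71.4%, 45.9%, 54.4% and 72.3% of that sum in Neat1 null libraries and 59.3%, 31.2%, 36.2% and 25.7% in wild-type libraries. Areg made up 22.7%, 39.8%, 31.7% and 18.7% in Neat1 null libraries and 29.4%, 54.6%, 48.0% and 55.6% in wild-type libraries. Both shares overlapped between groups through wild-type library 1, whose shares of both genes lay within the Neat1 null range, and the sums themselves did not overlap on this scale. In CPM not divided by length, the ligands summed to 106.7 to 289.8 in Neat1 null and 260.4 to 467.5 in wild-type libraries, which overlapped. The 3 receptors summed to 14.6, 10.2, 17.8 and 13.9 CPM per kb in Neat1 null libraries and to 12.9, 19.6, 17.6 and 18.1 CPM per kb in wild-type libraries. Erbb3 took 2.77%, 7.88%, 2.44% and 6.98% of the receptor sum in Neat1 null libraries, against 5.38%, 22.9%, 26.8% and 31.6% in wild-type libraries.

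**Figure D3:**
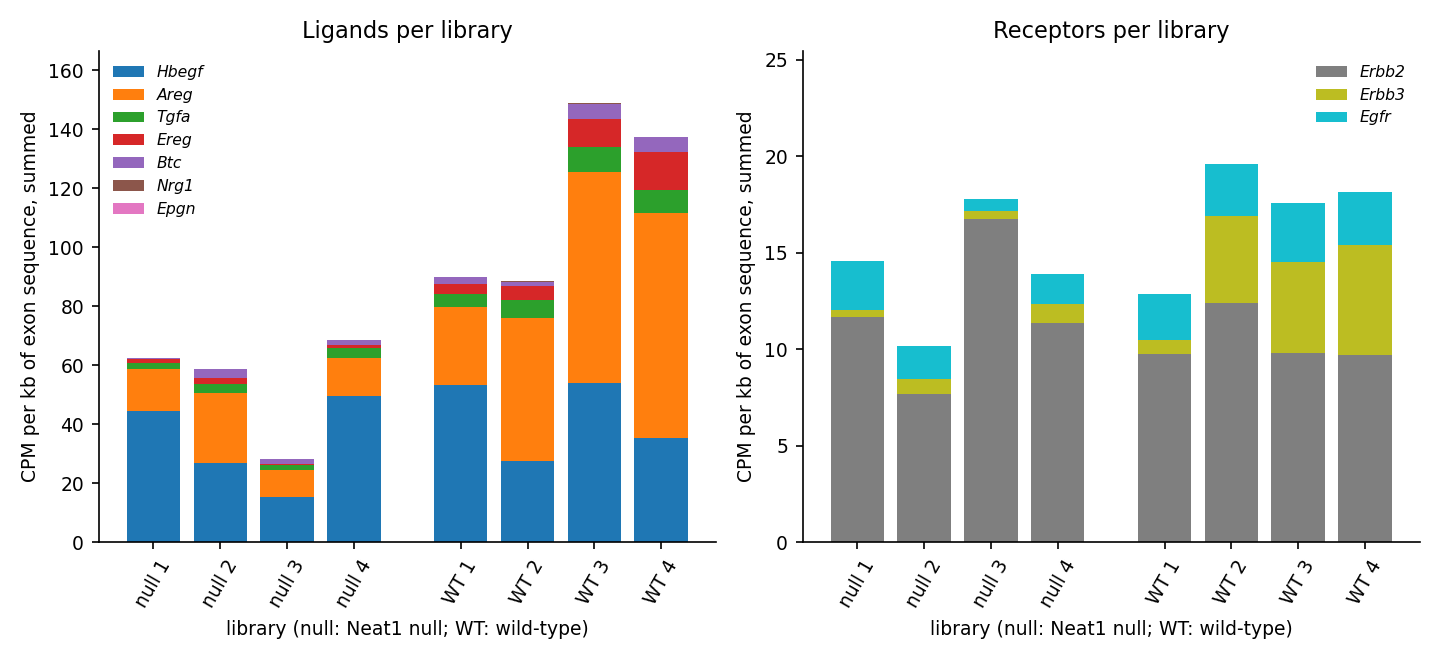
Summed CPM per kb of exon sequence of the 7 ligands (left) and 3 receptors (right) in each library, Neat1 null before wild-type, with colours for genes. Ligand sums lie between 28.3 and 68.7 in Neat1 null libraries and between 88.6 and 148.8 in wild-type libraries, while receptor sums overlap. Ligand sums in CPM without division by length overlap too.

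The other genes of the family were scarce. Erbb4, the neuregulin receptor, had 0.180, 1.47, 0.459 and 0.628 CPM in Neat1 null libraries 1 to 4, against 1.25, 2.94, 3.17 and 3.60 CPM in wild-type libraries 1 to 4, overlapping through Neat1 null library 2 and wild-type library 1. It passed the test (log2 fold change -1.95, SE 0.64, edgeR adjusted p = 0.0474), but after the length and GC correction its log2 fold change was -1.13 and it did not pass (edgeR adjusted p = 0.187). It also did not pass without Neat1 null library 1, 3 or 4, or without wild-type library 2, 3 or 4 (edgeR adjusted p between 0.0772 and 0.137), nor with no low-count filter (0.0512). Egf, the founding ligand, averaged 1.27 ± 0.384 CPM in Neat1 null libraries and 2.01 ± 0.345 CPM in wild-type libraries (n = 4 each) and did not pass in edgeR (adjusted p = 0.351). Nrg2 averaged 0.782 ± 0.309 CPM in Neat1 null libraries and 1.23 ± 0.376 CPM in wild-type libraries, and Nrg4 0.526 ± 0.439 and 0.929 ± 0.273 CPM in the same groups. Neither passed. Nrg3 had 0 counts in every library, which allows at most 0.0663 to 0.269 CPM per library (3 counts, counting error only).

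The refits reused the same libraries, so they show how sizes and calls depend on the settings and are no separate evidence of direction. For the 4 called members, the log2 fold change ran between -2.34 and -3.12 for Ereg, -1.63 and -2.43 for Areg, -1.05 and -1.55 for Tgfa, and -2.16 and -2.91 for Erbb3. After the length and GC correction all 4 still passed (-2.43, -2.43, -1.16 and -2.44 for Ereg, Areg, Tgfa and Erbb3, edgeR adjusted p between 0.0349 and 0.0376), with 12.5% of all genes called. Without Neat1 null library 3, wild-type library 3 or wild-type library 4, none of the 4 passed in edgeR (adjusted p between 0.0589 and 0.0905), and 13, 18 and 11 of all genes did. At an unadjusted p under 0.05, 4, 4 and 5 of the 9 tested members passed in those fits, as did 30.9%, 25.5% and 24.9% of all genes tested. Without Neat1 null libraries 1 and 3 together, none of the 4 passed (edgeR adjusted p between 0.143 and 0.157), and 7 of all genes did. At an unadjusted p under 0.05, 5 of the 9 members and 24.3% of all genes passed there. DESeq2 called the same number of members, 4, all lower, where it called 24.7% of all genes and 11.2% as lower.

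**Figure D4:**
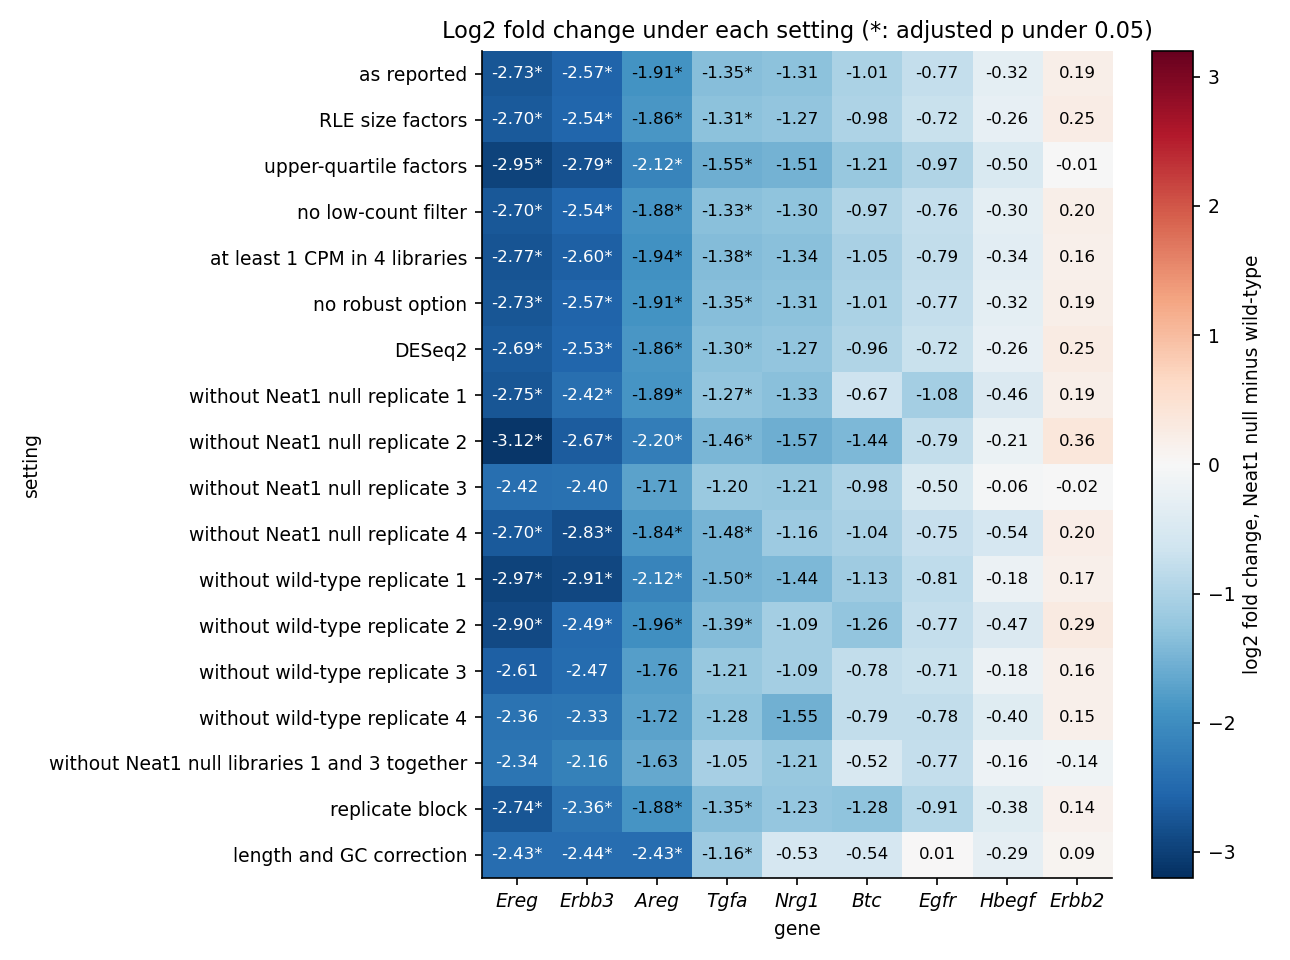
Log2 fold change (Neat1 null minus wild-type, colour and number) of the 9 tested members, in columns, under each setting, in rows, with * for an adjusted p under 0.05. Ereg, Erbb3, Areg and Tgfa are negative in every row and carry no * in 4 rows, while Egfr and Erbb2 change sign.

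Epgn, Ereg, Areg and Btc share a stretch of mouse chromosome 5 (GRCm38), where Ereg starts 65.0 kb before Areg and Btc 263.4 kb after it. Epgn lies at chr5:91027464-91035215, Ereg at chr5:91074622-91093646 and Areg at chr5:91139599-91148432, all on the plus strand, and Btc at chr5:91357261-91402994 on the minus strand. Of the 15 symbols from 5 genes before Epgn to 5 after Btc, 8 were tested and 3 passed, all lower in Neat1 null libraries: the members Ereg and Areg, described above, and Parm1. Of all genes tested, 17.7% passed and 7.72% were lower. The stretch was drawn around the members, so Ereg and Areg are not new results in this count. Of the tested genes there that are not members (Mthfd2l, Parm1, Rchy1, Thap6 and Gm1045), only Parm1 passed, beside 17.7% of all genes. Parm1 had few reads in Neat1 null libraries 1 to 4, with 5, 14, 22 and 24 counts. Parm1, a mucin-like membrane protein gene 378.0 kb beyond Areg, had 0.449, 0.411, 0.776 and 0.753 CPM in Neat1 null libraries and 2.15, 2.52, 14.1 and 4.67 CPM in wild-type libraries (log2 fold change -3.27, SE 0.68, edgeR adjusted p = 0.0180). Without wild-type library 3, its highest, the log2 fold change of Parm1 was -2.36 and it did not pass (edgeR adjusted p = 0.0687). Mthfd2l, the nearest tested gene on the other side, had a log2 fold change of -0.21 and did not pass (edgeR adjusted p = 0.750). Btc, between Areg and Parm1, did not pass either. Parm1 and Mthfd2l were chosen for their place beside the ligand genes.

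**Figure D5:**
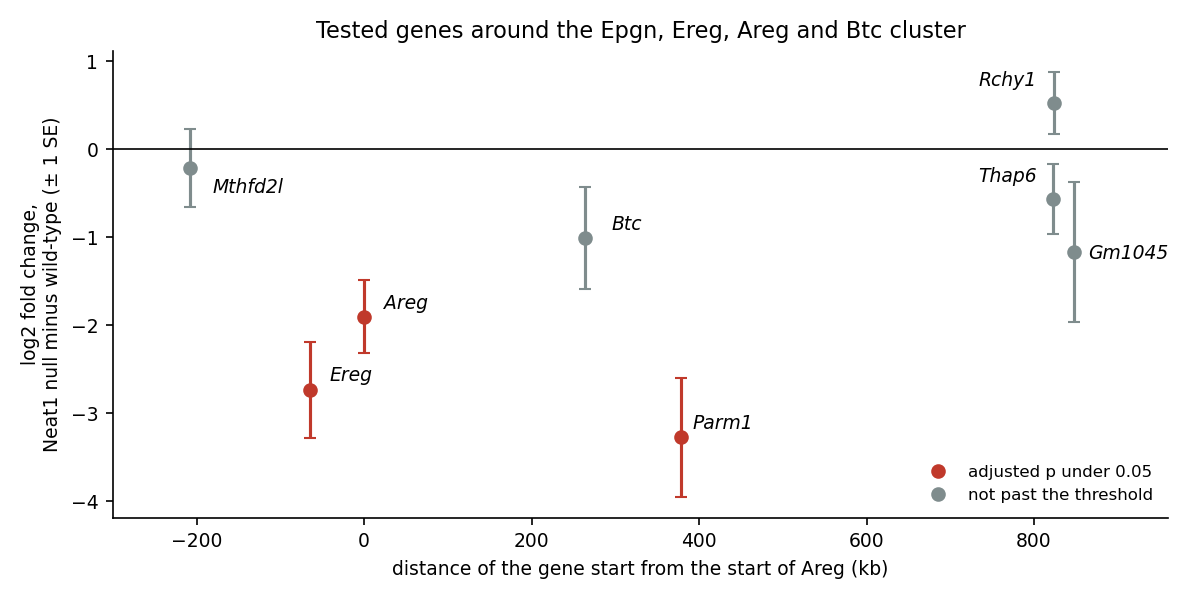
Log2 fold change (± 1 SE) of the 8 tested genes around the chromosome 5 ligand cluster, against the distance of their start from that of Areg in kb. Ereg, Areg and Parm1 passed the threshold, and the genes between and around them, Btc and Mthfd2l among them, did not.

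The other members lie apart. In the GENCODE annotation of GRCm38, whose starts can differ from those of RefSeq (for Erbb2 the printed window reaches past the GENCODE start), Tgfa is at chr6:86195223-86275719, Erbb3 at chr10:128567523-128589652, Egfr at chr11:16752203-16918158, Erbb2 at chr11:98412470-98437716, Nrg1 at chr8:31814551-32884029 and Hbegf at chr18:36504927-36515805. All 10 members are annotated as protein-coding. Exons of Ereg, Tgfa, Nrg1 and Erbb2 overlap a gene on the other strand. The strand setting of the counting was not given in the sources used here, so part of their counts may belong to the neighbour.

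Among the members, the profiles of log2 CPM over the 8 libraries, each centred on its own mean, were closest for Areg and Tgfa, with a root mean square difference of 0.405. Those of Ereg and Erbb2 were farthest apart, at 1.797. Of 11796 genes whose log2 CPM averaged 1 or more, the 3 closest to Ereg in this measure were Rin2 (0.273), Tmtc1 (0.283) and Ankrd45 (0.329). Closest to Areg were Mgat4a (0.180), Prkg1 (0.188) and Ppm1e (0.195). Napepld (0.106), Steap2 (0.153) and Ccdc157 (0.153) came closest to Tgfa, and Gadd45a (0.236), Slc40a1 (0.239) and Jam2 (0.348) to Erbb3. These are descriptions over 8 libraries that include the difference between the groups.

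Upstream of the receptors, the list of sheddases and trafficking factors held 14 tested genes, of which 4 passed, all lower in Neat1 null libraries, beside 17.7% of all genes called and 7.72% called as lower. The median log2 fold change was -0.84, and -0.54 after the length and GC correction. Adam8, a metalloprotease gene known from leukocytes, averaged 2.38 ± 1.11 CPM in Neat1 null and 23.4 ± 17.8 CPM in wild-type libraries (log2 fold change -3.28, SE 0.66, edgeR adjusted p = 0.0180). Its level in wild-type library 1, 3.29 CPM, lay within the Neat1 null range of 1.17 to 3.34 CPM. Adam9 averaged 51.8 ± 20.6 and 130.5 ± 26.1 CPM in the same groups (-1.33, SE 0.38, edgeR adjusted p = 0.0306) without overlap. Adam19 (-1.86, edgeR adjusted p = 0.0303) and Adam12 (-1.86, edgeR adjusted p = 0.0470) were the other called genes. Adam17, which encodes the main sheddase of amphiregulin, epiregulin and transforming growth factor alpha, had a log2 fold change of -0.50 and did not pass (edgeR adjusted p = 0.370). Nor did Adam10 (-0.88, edgeR adjusted p = 0.116), whose product releases betacellulin. After the length and GC correction, and also without Neat1 null library 1, Adam8 and Adam9 still passed and Adam19 and Adam12 did not.

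Downstream, 4 of 24 adaptors and effectors passed, all lower in Neat1 null libraries, beside 17.7% of all genes called and 7.72% called as lower. The list median was -0.47, and -0.23 after the length and GC correction. They were the SH2 and SH3 adaptor genes Nck2 (-1.17, edgeR adjusted p = 0.0318) and Nck1 (-1.15, 0.0426), the Ras exchange factor gene Sos1 (-1.20, 0.0459) and the EGFR substrate gene Eps8 (-1.14, 0.04996). Only Nck2 of these passed after that correction. The list's count was 1 without Neat1 null library 1, 2 without wild-type library 1 or 2, and 0 without Neat1 null library 4. Of 22 negative regulators and turnover genes, only the adaptor gene Grb14 passed, beside 17.7% of all genes. Grb14 averaged 3.87 ± 1.10 CPM in Neat1 null and 12.3 ± 6.49 CPM in wild-type libraries (log2 fold change -1.66, edgeR adjusted p = 0.0283). It passed neither after that correction nor without Neat1 null library 1. The median of that list was -0.43, and -0.06 after the correction. Ptpn1, a tyrosine phosphatase gene, was higher in Neat1 null libraries but did not pass (log2 fold change 1.08, edgeR adjusted p = 0.0508). It passed as higher after the correction, in DESeq2, with RLE size factors, and without Neat1 null library 2 or wild-type library 1. Errfi1, which encodes a feedback inhibitor of EGFR, had a log2 fold change of -0.03. None of the 10 MAPK output genes passed in edgeR, beside 17.7% of all genes, with a list median of -0.22. The smallest p there was that of the ETS factor gene Etv4, with 300 ± 189 CPM in Neat1 null libraries and 142 ± 29.6 CPM in wild-type libraries (edgeR adjusted p = 0.0818). It was the only 1 of the 10 at an unadjusted p under 0.05, beside 36% of all genes, and DESeq2 called it higher. Its mean rested on Neat1 null library 3, with 580.5 CPM against 179 to 241 CPM in the other Neat1 null libraries. The log2 fold change of Etv4 was 1.08, and 0.55 without that library and 0.64 after the length and GC correction. Without Neat1 null library 1, the ephrin receptor gene Epha4 passed as lower in edgeR. Without Neat1 null library 3, wild-type library 3 or wild-type library 4, or without Neat1 null libraries 1 and 3, none of the 9 called genes of these lists passed.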

How the data were processed

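RNA-seq read counts from 8 libraries were used as the authors deposited them: raw counts per gene symbol, 1 table per library. The submitters' processing notes list the build mm10 and the tools CASAVA 1.8, STAR and DESeq2 with no role given, and the counting program, strand setting and gene models are not given in the sources used here. Per the labels' protocols, libraries were made from total RNA with a stranded kit. Reads outside genes (5.48% to 11.0% of the deposited counts in Neat1 null and 9.83% to 15.7% in wild-type libraries) and ambiguous reads (1.34% to 1.76% and 1.09% to 1.22%) were left out. Libraries of a group differed beyond sampling noise (chi-square per degree of freedom at least 59.3).

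Genes passing filterByExpr (minimum count 10) were tested with edgeR 4.0.16 (R 4.3.3): TMM factors, robust quasi-likelihood F test, 2-sided, genotype as the only term, Benjamini-Hochberg adjustment over all genes tested, threshold 0.05. The standard error is the size of the log2 fold change divided by the square root of F. The fitting code was also run on simulated counts with 200 genes changed. These counts had no length trend and no library set apart, so that run does not bear on such differences between the real libraries. CPM were computed from the counts. Exon lengths and positions came from GENCODE M21 on GRCm38, which is mm10; 98.4% of the symbols matched. The length and GC correction used splines with 5 degrees of freedom as offsets.

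The members and gene lists were chosen with earlier results of these data known. Named were all members, Egf, Nrg2, Nrg3, Nrg4, Erbb4 and Neat1, up to 4 called genes of each pathway list (or the 1 with the smallest p), and the 3 genes most like each called member. Adam10, Adam17, Errfi1, Ptpn1, Epha4, Parm1, Mthfd2l, Rchy1, Thap6, Gm1045, Xist and marker genes stand outside that rule and were named with their values known.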

Additional observations from a re-analysis of the deposited data

Results flagged for a closer look

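In 38 groups of 4 libraries examined (CPM of the 10 members, 5 other family genes and Neat1, and 3 library measures), 2 held a library far from the other 3 by Dixon's test at the 95% level, which chance gives in about 1 of 20 groups. Erbb2 in wild-type library 2 stood at 64.7 CPM, above 50.6 to 51.1 CPM in the other wild-type libraries. The ribosomal RNA gene Rn45s took 5.23% of counts in Neat1 null library 1, against 0.457% to 0.596% in the other Neat1 null libraries.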

How the results depend on the processing

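The number of genes called was 2356, and 3589 with DESeq2, 7 without Neat1 null libraries 1 and 3 together, 7 at an adjusted p under 0.01, and 11 to 2965 with 1 library left out. Upper-quartile factors gave 1036 higher and 1428 lower genes, where TMM factors gave 1328 and 1028, and moved the median over all genes to a log2 fold change of -0.24, where TMM factors gave -0.06. The number of members called was 4, and 0 without Neat1 null libraries 1 and 3, 0 at an adjusted p under 0.01 and 0 to 4 with 1 library left out. The 4 pathway lists held 14, 24, 22 and 10 tested genes, of which 9 were called, beside 17.7% of all genes tested. That count was 0 without Neat1 null libraries 1 and 3, 0 at an adjusted p under 0.01 and 0 to 12 with 1 library left out. After the length and GC correction it was 4, beside 12.5% of all genes. The log2 fold change of Egfr was 0.013 after the length and GC correction. That of Erbb2 was -0.0094 with upper-quartile factors, -0.142 without Neat1 null libraries 1 and 3 and -0.016 to 0.358 with 1 library left out. With 1 library left out, Hbegf ran between -0.54 and -0.063, Btc between -1.44 and -0.67 and Egfr between -1.08 and -0.50. The cause of these shifts was not tested. Libraries with the same replicate number did not all deviate together (correlations of 0.317, -0.258, -0.014 and 0.108), so the numbers were not taken as pairs. With the replicate block 2245 genes, 4 members and 11 list genes were called, Epha4 among them as lower. Genes with few counts, such as Epgn and Nrg3, could not be compared at this depth.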
